A study of Mus musculus with 2 samples.

Results

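The SOCS feedback genes and the interferon receptor genes were set side by side in a control culture and an MMP9 knockout culture. Both were grown from mouse bone marrow and labelled as osteoclasts. The 10 genes were taken by symbol from a table of 26037 genes: Socs1, Socs2, Socs3, Socs5, Socs6 and Cish of the SOCS family, the type I interferon receptor genes Ifnar1 and Ifnar2, and the type II interferon receptor genes Ifngr1 and Ifngr2. All 10 were in the table, and 8 of them passed the filter used for comparison, a mean level of at least 1 over both libraries. Socs1 and Cish did not pass. Both groups were C57BL/6 marrow cells from mice aged 6 to 8 weeks, grown with the macrophage growth factor M-CSF and then treated for 3 days with RANKL, the cytokine that turns macrophages into bone-resorbing osteoclasts. The groups differed in genotype, control or MMP9 KO, where MMP9 is a matrix metalloproteinase that osteoclasts make in large amounts. The table headings add "NCsh" to the control and "sh" to the knockout. No label explains these letters, and the word knockout repeats the label without saying how Mmp9 was removed or lowered. Each group was 1 library, and the labels do not say how many mice gave the marrow. No test between genotypes was possible, and no difference below has a replicate check.

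SOCS proteins are feedback inhibitors of cytokine signalling. Cytokine receptors activate JAK kinases, these phosphorylate STAT transcription factors, and the STATs switch on genes that include those of SOCS1, SOCS3 and CIS, which then act back on the receptor or kinase. Each family member carries an SH2 domain, which binds phosphotyrosine, and a SOCS box, which recruits an elongin and cullin 5 ubiquitin ligase. The interferon receptors are such receptors: IFNAR1 and IFNAR2 together bind type I interferons, and IFNGR1 and IFNGR2 bind interferon gamma. Both kinds of interferon are known to restrain the formation of osteoclasts from their precursors.

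The control library held 20678441 reads and the knockout library 17741432. Levels are normalised read counts, which are read numbers multiplied by 1 factor per library and not divided by gene length, so levels of different genes are ordered only per kilobase, with the longest transcript unless another length is named. Ratios of the reads of 2 genes are not divided by length and serve only to compare the libraries. Calls past or within 2-fold use a pseudocount of 1, whereas printed levels and ratios do not. A low gene counted as within 2-fold can thus have a ratio of levels past 2-fold. Intervals are exact 95% intervals for counting error only, with reads taken as independent, so they are likely too narrow. Mmp9 was 139 in the control library and 3.87 in the knockout library. The cell type named by the labels was checked by its markers: all 10 osteoclast markers had reads in both libraries and all 10 were lower in the knockout by at least 2-fold, from 6904 to 425 in summed level. Under each scaling and centring 9 were lower by at least 2-fold. Some, among them Itgb3 and Oscar, passed the filter only through the control library. Of 9 compared macrophage markers 6 were higher, 1 was lower and 2 were within 2-fold. Among these 9, 2 passed the filter only through the knockout library, which sets part of the count of higher ones. The 12 listed macrophage markers summed to 1062 and 1438, with Marco at 0 in both libraries. T and NK cell markers had 2 reads in the control library and none in the knockout library, and neutrophil markers had none and 17. Summed levels of the other markers were 12.0 and 22.8 for B cells, nearly all from Blnk, and 1.37 and 0.808 for stromal cells. Dendritic cell markers summed to 16.3 and 2.49, mostly from Itgax and Zbtb46, with no read of Flt3 in either library. Mast cell, erythroid and platelet markers had 5 and 2 reads. In bulk RNA, fewer cells of a type and less RNA per cell cannot be told apart, and the part of this marker shift in the differences below was not tested.

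Socs3 differed most among the 10 genes. Its product binds the shared receptor chain gp130 and the kinases attached to it, and so limits signalling by IL-6 and LIF. It also limits signalling by G-CSF, which uses another receptor. The level of Socs3 was 1.37 in the control library (1.03 to 1.78, from 55 reads) and 14.5 in the knockout library (13.4 to 15.7, from 612 reads). The counting intervals of both libraries lay far apart, and the knockout was 10.6-fold higher (8.06 to 14.3). On the log2 scale with a pseudocount of 1, which understates differences of low genes, the ratio was 2.71, the 83rd highest of 11126 compared genes. Socs3 (ENSMUSG00000053113) lies on the minus strand of chromosome 11, from 117966079 to 117970047 in GRCm38.

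Socs2 was the other member past 2-fold, and it lay on the opposite side. SOCS2 is known as a brake on growth hormone signalling. Its level was 2.34 in the control library (1.89 to 2.86, from 94 reads) and 0.499 in the knockout library (0.309 to 0.763, from 21 reads), 4.68-fold lower (2.89 to 7.91). Its log2 ratio of -1.15 was past the threshold by little, and 7.17% of the compared genes had a lower ratio. Socs2 passed the filter through its control level, so its presence among the compared genes rests on the library in which it was higher.

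Socs1 and Cish were the members with the fewest reads. SOCS1 is a strong inhibitor of interferon signalling that blocks JAK kinases directly. Socs1 was 0.248 in the control library (0.119 to 0.457, from 10 reads) and 0.689 in the knockout library (0.461 to 0.989, from 29 reads), a ratio of 2.77 with a wide interval from 1.31 to 6.38. The intervals did not overlap, with 0.457 and 0.461 as their nearest bounds. Cish, which encodes CIS, a target and inhibitor of STAT5 signalling, had 2 reads in each library. Both counts are under the limit of 3 reads, so no ratio is given for it, and a difference was not detectable at this depth.

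Socs5 and Socs6 were near equal in both libraries. SOCS6 binds the receptor kinase KIT, and SOCS5 has been tied to EGF receptor signalling. Socs5 was 12.8 in the control library and 12.7 in the knockout library, from 515 and 535 reads, a ratio of 0.993 (0.878 to 1.12). Socs6 was 13.8 and 11.5, from 555 and 486 reads, a ratio of 0.837 (0.740 to 0.947). Scaling the knockout to equal sums turned the log2 ratio of Socs5 from -0.01 to 0.26 and that of Socs6 from -0.24 to 0.03, so no direction is given for either. The remaining family genes, Socs4 and Socs7, which are not among the 10, were 28.7 and 33.6, and 19.0 and 26.4.

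Per kilobase of transcript, the make-up of the SOCS family differed between the libraries. Over 8 family genes the summed level per kilobase was 13.1 in the control library and 19.4 in the knockout library, and without Socs3 it was 12.6 and 13.7. Socs3 made up 4.09% of the control sum and 29.4% of the knockout sum, and Socs2 4.20% and 0.608%. With the median transcript length these shares were 8.54% and 49.8% for Socs3 and 8.10% and 0.948% for Socs2. Ratios of 2 genes within a library do not depend on the scaling between libraries. The ratio of Socs3 to Socs2 reads was 0.585 in the control library (0.412 to 0.825) and 29.1 in the knockout library (18.9 to 47.4). The ratio of Socs3 to Socs1 reads was 5.50 (2.78 to 12.1) and 21.1 (14.5 to 31.8), so Socs3 stood further above Socs1 in the knockout, although both were higher there. In contrast the ratio of Socs5 to Socs6 reads, 0.928 (0.821 to 1.05) and 1.10 (0.972 to 1.25), had overlapping intervals.

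**Figure D1:**
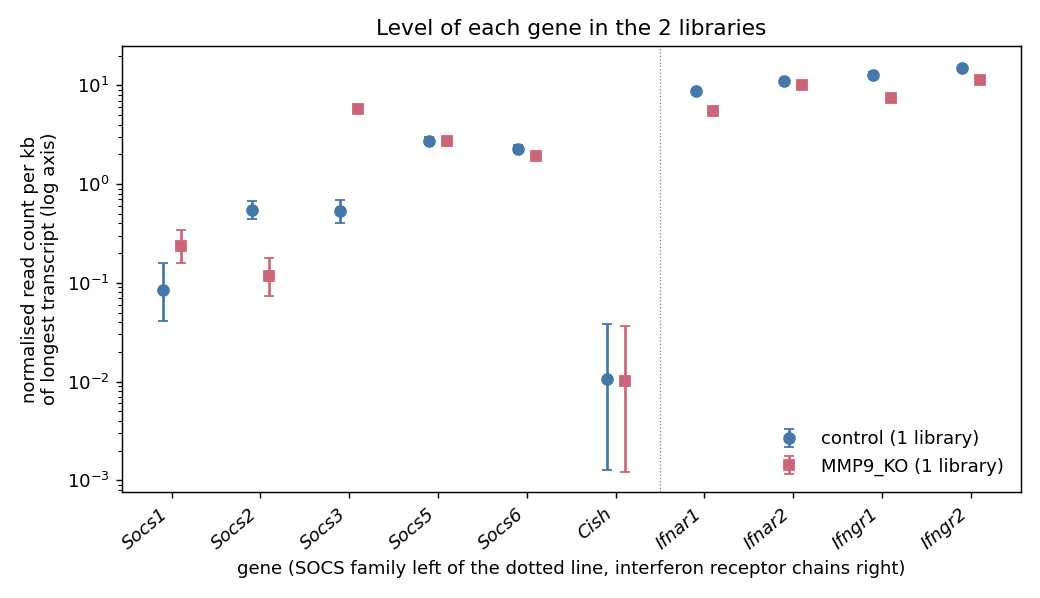
Level per kilobase of the longest transcript (log axis) of each of the 10 genes, with the control library as circles and the MMP9_KO library as squares and bars for the exact 95% counting interval. Socs3 goes from 0.536 in the control to 5.70 in the knockout, Socs2 from 0.551 to 0.118, and the 4 receptor genes lie between 5.52 and 15.0.

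The promoters of Socs3, Socs1 and Cish are shown because these genes are known targets of STATs or interferon and differed so widely in level. They span 250 bases before to 50 after the RefSeq start in GRCm38.p6, and 7 of the 10 genes had such an entry, without Socs2, Socs5 and Socs6. Capitals mark matches to 3 patterns searched on both strands. In 2 of them TTC is followed by GAA after 3 or 4 bases of any kind, as in the cores of STAT binding sites, and both read the same on either strand. In the third, GAAA is followed by GAAA after 2 bases, as in the core of the interferon-stimulated response element. They lie at chr11:117969317-117969616 on the minus strand for Socs3, chr16:10785487-10785786 on the minus strand for Socs1 and chr9:107296409-107296708 on the plus strand for Cish.
Socs3: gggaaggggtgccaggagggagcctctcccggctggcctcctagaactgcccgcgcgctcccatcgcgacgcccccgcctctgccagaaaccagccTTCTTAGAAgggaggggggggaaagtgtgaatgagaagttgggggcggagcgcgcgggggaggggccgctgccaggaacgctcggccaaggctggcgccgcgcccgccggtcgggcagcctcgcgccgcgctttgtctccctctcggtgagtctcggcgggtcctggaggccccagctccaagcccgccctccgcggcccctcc
Socs1: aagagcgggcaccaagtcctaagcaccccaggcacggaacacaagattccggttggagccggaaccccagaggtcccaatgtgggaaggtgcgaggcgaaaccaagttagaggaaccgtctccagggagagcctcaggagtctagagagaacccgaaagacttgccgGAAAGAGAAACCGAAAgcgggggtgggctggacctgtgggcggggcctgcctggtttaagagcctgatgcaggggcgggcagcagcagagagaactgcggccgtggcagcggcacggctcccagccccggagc
Cish: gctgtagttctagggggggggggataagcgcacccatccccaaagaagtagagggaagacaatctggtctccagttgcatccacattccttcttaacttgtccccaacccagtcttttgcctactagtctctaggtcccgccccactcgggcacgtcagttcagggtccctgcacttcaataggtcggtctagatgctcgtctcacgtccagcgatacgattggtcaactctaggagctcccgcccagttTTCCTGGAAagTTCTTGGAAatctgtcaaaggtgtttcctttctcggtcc
The Socs3 window held 1 match, TTCTTAGAA. The Cish window held 2 of the same pattern, TTCCTGGAA and TTCTTGGAA, although Cish had 2 reads in each library. The Socs1 window held 2 overlapping matches of the interferon pattern, GAAAGAGAAA and GAAACCGAAA. Among the receptor genes, Ifnar1 and Ifnar2 each held 1 STAT pattern with a gap of 3 bases, Ifngr2 held 1 with a gap of 4 and Ifngr1 held none of the 3. Of 32851 promoters of the same length, 8.30% held the STAT pattern with a gap of 3 bases, 6.95% that with a gap of 4 and 3.44% the interferon pattern. A match describes the letters and does not show that a factor binds there.

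All 4 interferon receptor genes were expressed in both libraries and none differed by 2-fold. Ifngr1, the ligand-binding chain of the interferon gamma receptor, was 27.1 in the control library (25.5 to 28.7) and 15.6 in the knockout library (14.4 to 16.8). These levels rest on 1090 and 657 reads, and the knockout was 1.74-fold lower (1.57 to 1.91). Ifnar1, the chain that carries the kinase TYK2, was 34.3 (32.5 to 36.2, 1381 reads) and 21.6 (20.2 to 23.0, 909 reads), 1.59-fold lower (1.46 to 1.73). Ifngr2, the chain that carries JAK2, was 55.5 (53.2 to 57.8, 2232 reads) and 42.1 (40.2 to 44.1, 1772 reads), 1.32-fold lower (1.24 to 1.40). These 3 kept a log2 ratio below 0 under each scaling and centring tried, between -0.79 for Ifngr1 with a pseudocount of 0.1 and -0.11 for Ifngr2 with equal sums.

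Ifnar2, the high-affinity chain for type I interferons, was the receptor gene with the smallest difference. It was 33.4 in the control library (31.7 to 35.3, 1345 reads) and 30.5 in the knockout library (28.9 to 32.3, 1286 reads), a ratio of 0.914 (0.846 to 0.987). Its log2 ratio of -0.13 turned to 0.05 with the median of all genes set to 0 and to 0.15 with equal sums, so it has no stable direction. The median log2 ratio of all compared genes was -0.16. Relative to it, Ifngr1 lay at -0.60, Ifnar1 at -0.48, Ifngr2 at -0.23 and Ifnar2 at 0.04.

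**Figure D2:**
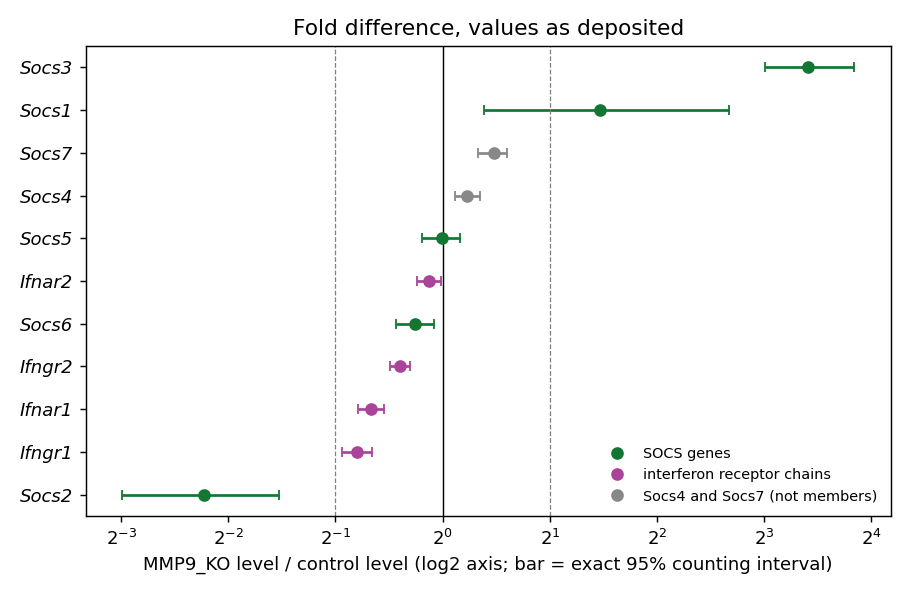
Ratio of the MMP9_KO level to the control level on a log2 axis, with exact 95% counting intervals, for 9 of the 10 genes (Cish is left out, with 2 reads in each library) and for Socs4 and Socs7. Socs3 at 10.6 and Socs2 at 0.214 stand apart from the receptor chains, which lie between 0.576 and 0.914.

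The balance of the chains within each receptor differed between the libraries. The ratio of Ifnar1 to Ifnar2 reads was 1.03 in the control library (0.952 to 1.11) and 0.707 in the knockout library (0.649 to 0.770). The ratio of Ifngr1 to Ifngr2 reads was 0.488 (0.454 to 0.525) and 0.371 (0.339 to 0.406). In both receptors the intervals of the libraries did not overlap, and the first chain was the one with the lower share in the knockout. Across receptors, the ratio of Ifngr1 to Ifnar1 reads was 0.789 (0.728 to 0.855) and 0.723 (0.653 to 0.800), with overlapping intervals.

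Per kilobase of the longest transcript the order of the 10 genes in the control began with Ifngr2 at 15.0, Ifngr1 at 12.8, Ifnar2 at 11.0 and Ifnar1 at 8.78. Socs5 at 2.75 and Socs6 at 2.28 came next, then Socs2 at 0.551 and Socs3 at 0.536, whose intervals overlapped, and last Socs1 at 0.0854 and Cish at 0.0106. In the knockout Ifngr2 was 11.4, Ifnar2 10.0 and Ifngr1 7.39. Socs3 followed at 5.70, with an interval that overlapped that of Ifnar1 at 5.52. Below them were Socs5 at 2.73, Socs6 at 1.91, Socs1 at 0.237, Socs2 at 0.118 and Cish at 0.0101, with the intervals of Socs1 and Socs2 overlapping. Per kilobase, Socs3 was beside a receptor chain in the knockout order and beside Socs2 in the control order. The order depends on the transcript chosen: with the median transcript length Socs3 was the highest of the 10 in the knockout, at 29.7 against 27.8 for Ifnar2, with overlapping intervals.

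Of the 8 compared members 1 was higher, 1 was lower and 6 were within 2-fold. Among all 11126 compared genes 445, or 4.00%, were higher by at least 2-fold and 1066, or 9.58%, were lower. With equal sums these counts were 674 and 684. The median log2 ratio of the 8 members was -0.31, beside -0.16 for all compared genes. With 8 genes, 1 call in each direction does not set the members apart from this background. Across genes the log2 ratio and transcript GC content had a Spearman rho of -0.31, a description over genes that share both libraries. The Socs3 transcript is GC-rich (58.7%), and genes in its bin of GC content had a median of -0.44, and Socs3 was at 3.16 after centring by bin. Socs2 (45.4% GC) was -1.11 after the same centring.

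**Figure D3:**
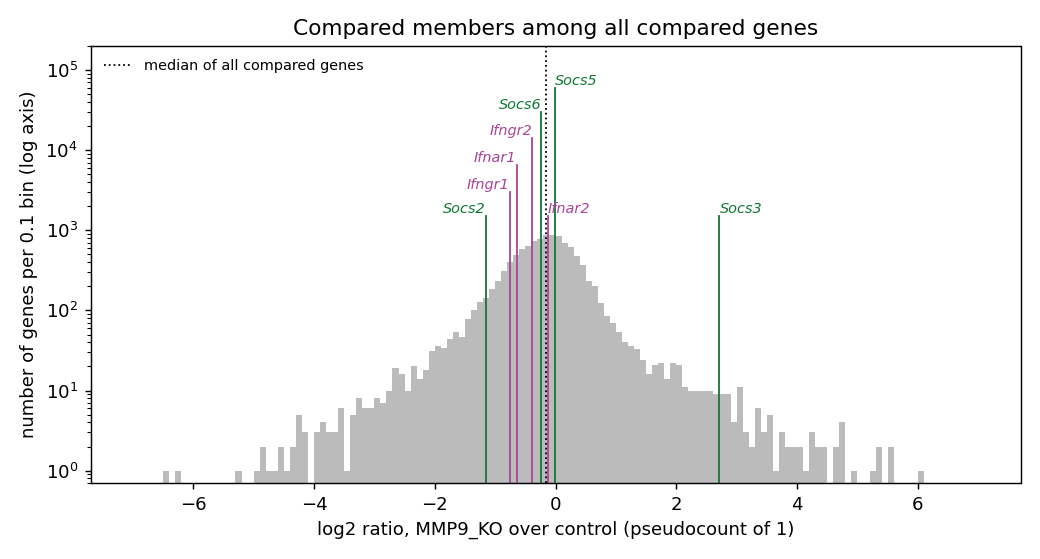
Number of compared genes per bin of log2 ratio (log axis) with the 8 compared members marked by lines whose heights serve only to separate the labels. Socs3 lies at 2.71 in the upper tail, Socs2 at -1.15, and the other 6 lie between -0.76 and -0.01 around the median of all compared genes at -0.16.

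The genes most like Socs3 and Socs2 were sought among 7835 named genes with a mean level of at least 5, by distance in the plane of both log2 levels, not divided by length, which rests on only 2 libraries. Nearest to Socs3 were Cd33, a sialic acid-binding receptor gene of myeloid cells (1.07 and 14.0), Acsbg1, which encodes an acyl-CoA synthetase (1.57 and 12.3), and Trib3, a stress-induced pseudokinase gene (1.27 and 12.0). Their distances were 0.20 to 0.26. Nearest to Socs2 were Phospho1 (9.19 and 0.950), Fam19a3 (8.75 and 1.43) and Siglec15 (9.84 and 0.404), but at distances of 1.66 to 1.70, since Socs2 itself is below the level of this search.

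The receptor genes Ifnar2, Ifnar1 and Ifngr2 are neighbours. They lie on the plus strand of chromosome 16 with the IL-10 receptor gene Il10rb between Ifnar2 and Ifnar1, over 192841 bases from 91372783 to 91565623 in GRCm38. Ifngr1 lies apart, on chromosome 10 from 19591949 to 19610229. Il10rb was the lowest of the 4 clustered genes, at 29.5 in the control library and 14.2 in the knockout library, 2.07-fold lower (1.88 to 2.29). The other 5 compared genes within 150 kb were taken by position: Tmem50b with a ratio of 1.80, Gm15964 with 1.35, Gart with 1.32, Son with 0.864 and Donson with 1.64. Of these, 4 had a higher level in the knockout and all 5 were within 2-fold. Gm15964 is annotated as antisense and overlaps Gart, and no label says whether reads were counted by strand. Ratios of the receptor cluster lay between 0.482 and 0.914, and those of the genes beyond Ifngr2 between 0.864 and 1.80.

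**Figure D4:**
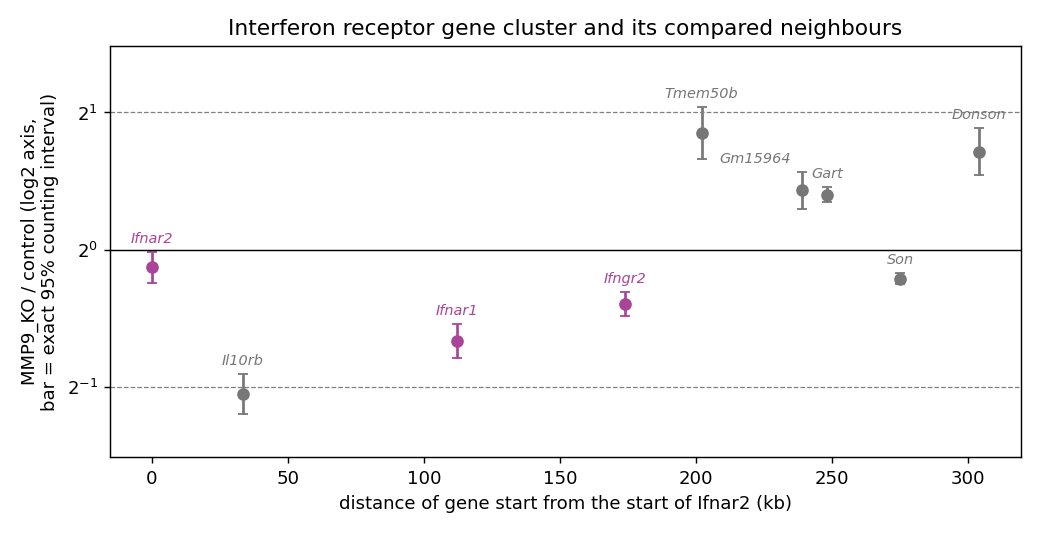
Ratio of MMP9_KO to control level (log2 axis, with exact 95% counting intervals) against the distance of each gene's start from the start of Ifnar2, for the 9 compared genes within 150 kb of the cluster. The 4 receptor genes at 0 to 174 kb lie at 0.482 to 0.914, and 4 of the 5 genes from 202 to 304 kb lie above 1.

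The ligand genes of these receptors were almost without counted reads. Over 19 interferon genes, among them Ifnb1 and the Ifna genes, there were 4 reads in the control library and 1 in the knockout library, and 16 genes had no read in either library. The Ifna genes are alike in sequence, so reads that match several of them may have gone uncounted. The 19 also include interferon lambda genes, which encode ligands of another receptor and had no read in either library. Ifnb1 had no read in either, and 3 reads, the limit taken for a count of 0, correspond to 0.0745 in the control library and 0.0713 in the knockout library. Ifng had 2 reads in the control library and none in the knockout library. Interferon-stimulated genes, by contrast, were higher in 24 of 28 compared cases, lower in none and within 2-fold in 4, with a median of 2.86. Of these 28, 14 passed the filter only through the knockout, which sets part of that count. Isg15, a ubiquitin-like modifier, was 0.547 and 31.0, and Irf7, the factor that amplifies type I interferon, was 1.34 and 43.3.

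Between receptors and feedback, the JAK and STAT genes gave 2 higher, 0 lower and 8 within 2-fold of 10 compared, with a median of -0.02. Stat2, itself interferon-stimulated, was 8.10 and 24.2, 2.99-fold higher (2.64 to 3.40). Jak2, the kinase of IFNGR2, had a ratio of 1.65 (1.47 to 1.84). Stat3, the STAT that drives Socs3 downstream of gp130 and IL-10, was 41.2 and 48.3 and was named after its value was seen. Other negative regulators of this pathway gave 1 higher, 2 lower and 10 within 2-fold of 13, with a median of -0.17. Usp18, which binds IFNAR2 and blocks the type I receptor, was 1.17 and 103, 88.5-fold higher (66.4 to 121). The lower ones were Ptpn1, a phosphatase that acts on JAK2 and TYK2 (103 and 34.5, 2.98-fold, 2.81 to 3.17), and the ubiquitin ligase gene Cblb (18.7 and 6.22, 3.00-fold). The partners of the SOCS box gave 7 of 7 within 2-fold, with a median of -0.45; the elongin genes Tceb1 and Tceb2 were 12.5 and 13.0, and 17.7 and 11.4.

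Other cytokine receptor genes included some past 2-fold. Of 11 compared class I cytokine receptors 5 were lower by at least 2-fold and 0 higher, with a median of -0.93. Il6st, which encodes the SOCS3 target gp130, was 56.7 in the control library and 14.4 in the knockout library, 3.93-fold lower (3.59 to 4.31). Csf2rb2 was 7.44-fold lower (6.67 to 8.33) and Csf2rb 4.32-fold lower (3.93 to 4.76). These 2 near-identical genes for receptor beta chains may share reads, so their split is uncertain. Il6ra, the IL-6 binding chain, was 19.0 and 33.9. Of 4 compared class II receptors other than the members, 1 was higher and 2 were lower, with a median of -0.98. This median has no stable direction across filters, since it depends on which genes are compared. It was 1.10 when the minimum mean level was 5, which left only Il10ra and Il10rb, on opposite sides. Without a filter it was 0.00, where genes with no read in either library enter at 0. Under the pseudocounts, scalings and centrings it stayed below 0, from -1.33 to -0.42. Il10ra, the ligand-binding chain of the IL-10 receptor, was 1.02 and 17.5, 17.2-fold higher (12.5 to 24.1), while its partner Il10rb was lower, as above, by little more than 2-fold and by less than 2-fold under every scaling. F3, which encodes tissue factor, was 2.29 and 0.166 and passed the filter only through the control library.

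Cytokines that act through JAK and STAT proteins gave 1 higher, 1 lower and 3 within 2-fold of 5 compared, with a median of -0.19. The median was 0.11 after centring by GC content. With a minimum mean level of 5 only Lif remained, so the value of -3.91 there is that of Lif alone. Lif was 23.6 in the control library and 0.641 in the knockout library, 36.8-fold lower (25.2 to 56.2). Csf3, which encodes G-CSF, had 1 read in the control library and 128 in the knockout library, a ratio of 122 with an interval from 21.6 to 4871. Csf3 passed the filter only through the knockout library and Lif only through the control library. Il6 had 0 and 3 reads. Il10, named after its value was seen, had 0 and 46 reads. Ebi3 was 2.96 and 6.46, a ratio of 2.19 (1.76 to 2.73), and counts as within 2-fold only through the pseudocount of 1.

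Feedback inhibitors of other pathways gave 5 higher, 4 lower and 13 within 2-fold of 22 compared, with a median of 0.20. Irak3, a brake on Toll-like receptor signalling, was 0.348 and 14.9, 43.0-fold higher (25.4 to 79.0). Dusp2, a MAP kinase phosphatase gene, was 15.0 and 64.2. Spry1, which limits receptor tyrosine kinase signalling, was 7.43 and 0.451, 16.5-fold lower (10.4 to 27.7). Irak3 passed the filter only through the knockout library and Spry1 only through the control library. The NF-kB inhibitor genes Nfkbia and Nfkbie were 131 and 144, and 29.9 and 13.6.

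**Figure D5:**
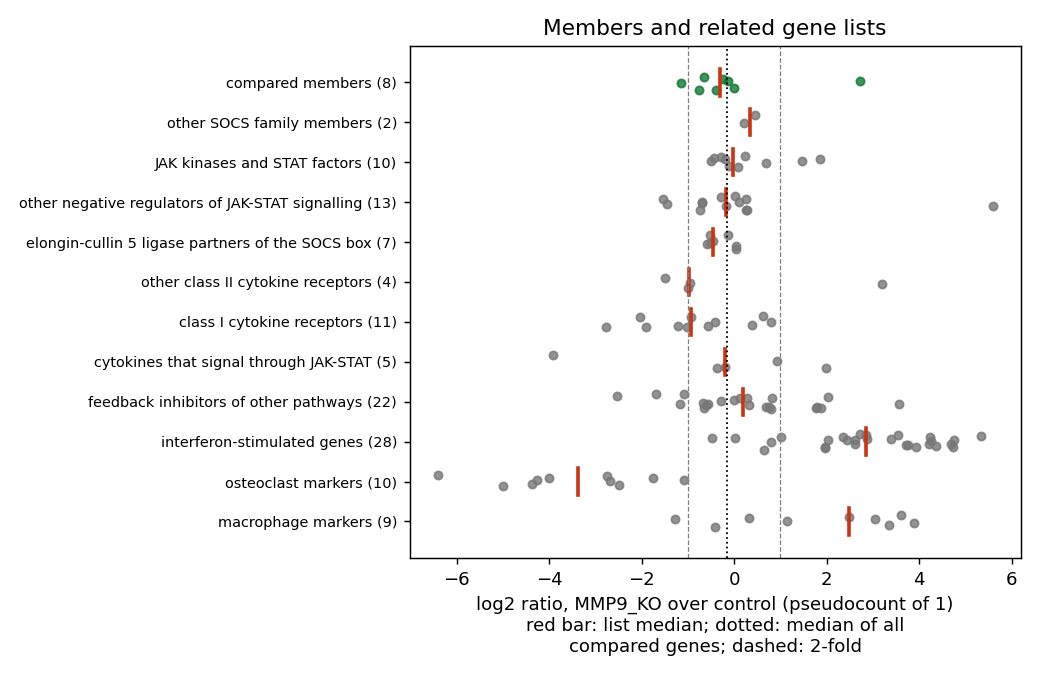
Log2 ratio of each compared gene in the members and in 11 related lists, with the number compared in parentheses, the list median as a red bar and the 2-fold thresholds dashed. The members' median of -0.31 is near that of all compared genes at -0.16, whereas interferon-stimulated genes have a median of 2.86 and osteoclast markers of -3.37.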

How the data were processed

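RNA-seq of 1 control and 1 MMP9 KO library was analysed. Reads were aligned with TopHat to mm9, per the submitters' processing notes; no source here names the counting program, strand setting or normalisation. The values deposited by the authors are log2 and titled as RPKM, but after conversion 99.99% or more lay within 0.05 of whole multiples of 1 step per library (0.0248 and 0.0238) at any gene length. They were treated as log2 of scaled read counts, and the lowest value (0.9 of the step) as no read. Python 3.11.15, pandas 2.3.3, NumPy 2.4.6 and SciPy 1.17.1 gave ratios with exact (Clopper-Pearson) intervals and levels with exact Poisson intervals. Calls used a pseudocount of 1, a mean of at least 1 and 2-fold. The recovery of reads and calls was run on simulated data with Poisson counting error and the same steps. Such data hold no spread between replicates, so they cannot show how the calls would hold in other cultures. GENCODE M21 (GRCm38) gave positions, lengths and GC content for 96.2% of compared genes.

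The members and the 18 gene lists (234 entries, 2 not found) were chosen with earlier results of these data known. Named genes are the members, Mmp9, the first 2 of each list, its 3 largest differences and the 3 genes nearest to each member past 2-fold; not all of these are printed. Marco, the genes beside the receptor cluster and those said to be named after their values were seen are additions to this rule. Alternatives were pseudocounts, filters, scalings and centring by GC content or length. No protein table was used here. A result is left out and not reported here.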

Additional observations from a re-analysis of the deposited data

How the results depend on the processing

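Socs3 stayed past 2-fold, higher in the knockout, under each of the 8 settings of pseudocount, scaling and centring, with log2 ratios of 1.62 to 3.32. Socs2 was lower by at least 2-fold under 7 of 8, with ratios of -2.02 to -0.42. The count of members lower by at least 2-fold went from 1 to 0 with a pseudocount of 5, whose construction pulls low values together, and to 0 with a mean of at least 5, which removes Socs2. Socs1 reached 1.18 with a pseudocount of 0.1 and was 0.12 with 5. Socs5, Socs6, Cish and Ifnar2 changed the sign of a log2 ratio that was not past 2-fold. The counts over all genes, 445 higher and 1066 lower, were 255 and 603 with a pseudocount of 5 and 674 and 684 with equal sums. Centring by GC content left 700 lower. Of the list counts, those of class II receptors lower went from 2 to 1 under each scaling and centring and to 0 with a pseudocount of 5, class I receptors lower from 5 to 3 with a pseudocount of 5 or equal sums and higher from 0 to 1 with equal sums or centring by GC content. Cytokines higher went from 1 to 2 under each scaling and centring, with a pseudocount of 0.1 and without a filter, and to 0 with a pseudocount of 5 or a mean of at least 5. Other feedback inhibitors higher went from 5 to 8 with equal sums and lower from 4 to 2 under the 3 scalings, class II receptors lower to 1 with a mean of at least 5, and macrophage markers lower from 1 to 0 after centring by GC content or length. Of 10 list medians, 4 changed sign over the 10 alternatives: class II receptors (-1.33 to 1.10, and -0.07 as a mean), cytokines (-3.91 to 0.11), JAK and STAT genes (-0.02 to 0.41) and other negative regulators (-0.17 to 0.11). The values of 1.10 and -3.91 arose with a mean of at least 5, which left only Il10ra and Il10rb of the class II receptors and only Lif of the cytokines. The medians of the JAK and STAT genes and of the other negative regulators began near 0, and the 3 scalings multiply the knockout by 1.13 to 1.22. Any other cause was not tested. Centring by length was an addition made with the data in view. No paired analysis was possible because each group had 1 library, and none could be left out. Counting error limits Socs1 (10 and 29 reads) and Cish (2 and 2).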
